A study of Mus musculus with 20 samples.

Results

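The complement system genes were described as a list of 37 mouse genes that cover the recognition molecules, proteases, central components, terminal components, regulators and receptors of complement. Of the 54532 genes in the count table all 37 had a row, and 35 passed the filter of 2 or more CPM (read counts scaled to the library total) in 3 or more mice, as 12289 genes did in all. *C7* and *Itgam*, which lay between 0.0462 and 2.33 and between 0.0714 and 1.73 normalized CPM, did not pass and were not tested. *C5ar1*, *Cd46*, *Cfd* and *C3ar1* passed with only 3, 4, 9 and 16 mice at that level. For *C5ar1* these were Sham HFD replicates 1, 4 and 5 and for *Cd46* RYGB HFD replicates 2 to 5. Each thus entered the tests only through the group where it was high, which favoured a difference. For *Cfd* all but 1 of these mice were on HFD. The livers came from male C57BL/6 mice made obese by 12 weeks of HFD, a diet high in fat. They were then operated, either sham or by RYGB, a gastric bypass with a Roux limb, and were fed chow or HFD for the next 8 weeks. Each of the 4 groups held 5 mice with 1 liver library each. The groups are Sham Chow and RYGB Chow, then Sham HFD and RYGB HFD, and values of several groups are given in that order. All 4, chow groups included, had thus been fed HFD before surgery. The study states that body weight differed between the groups and was highest in Sham HFD. Weight therefore cannot be told apart from surgery and diet. The chow surgery contrast set RYGB Chow against Sham Chow, and the HFD surgery contrast set RYGB HFD against Sham HFD. The sham diet contrast set Sham HFD against Sham Chow, and the RYGB diet contrast set RYGB HFD against RYGB Chow. They asked what surgery did on each diet and what HFD did after each operation.

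Complement is a cascade of plasma proteins in which recognition molecules bind a surface and activate proteases, which cleave C4, C2 and C3. Cleaved C3 marks the surface and leads to cleavage of C5, after which C6, C7, C8 and C9 assemble into the membrane attack complex. Hepatocytes make most of these plasma proteins, while macrophages make the 3 chains of C1q and properdin, and cells in contact with complement carry membrane regulators and receptors. Following that textbook division, 22 of the tested members were counted as hepatocyte-made, 7 as macrophage-made and 6 as other. Whole liver was sequenced, so fewer cells of a type and less RNA per cell cannot be told apart.

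Total counts ran from 14604854 to 22537498 per mouse. The liver label matched the data, with the hepatocyte gene *Alb* at a median of 61968 CPM or more in each group and 6 of 7 hepatocyte markers tested. Libraries did not differ only by group. The summed level of 7 Kupffer cell markers was 102 and 93.2 CPM in Sham Chow replicates 4 and 5, against 150 to 238 in the other Sham Chow mice, and 466 in RYGB Chow replicate 3, against 195 to 269 in the other RYGB Chow mice. Levels below are CPM scaled by TMM factors, listed in the order of replicates 1 to 5, and a positive log2 fold change means a higher level in RYGB (surgery contrasts) or on HFD (diet contrasts).

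The hepatocyte-made members summed to group medians of 18022, 18933, 15021 and 23180.4 CPM. The ranges were 16370.2 to 19382, 16369 to 20520.2, 14283 to 15439 and 22289.5 to 25978, so Sham HFD lay below and RYGB HFD above the other groups without overlap. The largest part of these sums was *C3*, with group means of 6578, 7129, 4735 and 9648 CPM, and not every member followed the pattern. The macrophage-made members summed to a median of 119, 201, 188 and 197 CPM in the same order, with Sham Chow (84.4 to 151) lowest and the other 3 groups between 131 and 278. All members together took a median of 1.76%, 1.89%, 1.62% and 2.36% of the counts.

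A gene is said to have risen or fallen where its adjusted p in edgeR's quasi-likelihood test was under 0.05. In the HFD surgery contrast, 15 members rose and 2 fell, where 8.54% of all tested genes rose and 7.9% fell. All 15 that rose were hepatocyte-made, and *Mbl2* and *Cd59a* were the 2 that fell. The median log2 fold change was 0.43 over the 22 hepatocyte-made members, -0.02 over the 7 macrophage-made members and 0.01 over all tested genes. The groups did not overlap for 16 members, against 14.7% of all tested genes. *Cfi*, *Masp1* and *Cfb* were the least stable of the 15. *Cfi* lost its call when Sham HFD replicate 1, 3 or 4 or RYGB HFD replicate 1 or 3 was left out, with an adjusted p up to 0.066. *Masp1* lost it without Sham HFD replicate 2 or 3 or RYGB HFD replicate 3 (adjusted p up to 0.0583), and *Cfb* in 12 of 20 such fits (adjusted p up to 0.124). With library size only all 3 lost the call. Over the other settings the adjusted p of *Cfi*, *Masp1* and *Cfb* reached 0.126, 0.0567 and 0.127.

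In the sham diet contrast, 8 members rose and 9 fell, where 10.9% of all tested genes rose and 10.7% fell. All 9 that fell were hepatocyte-made, and 8 of these were among the 15 that rose in the HFD surgery contrast. These contrasts share the Sham HFD mice. The 8 that rose were the macrophage-made *C1qb*, *C1qc*, *Cfp* and *C5ar1*, then *C1s1* and *C4b* among the hepatocyte-made, and *Colec11* and *Cd59a*. *C5ar1* passed the filter only through Sham HFD, which favoured its rise. The median log2 fold change was -0.11 over the hepatocyte-made members and 0.70 over the macrophage-made members. The groups did not overlap for 14 members, against 16.5% of all tested genes. Without Sham Chow replicates 4 and 5, an alternative chosen after seeing the data, the 9 falls were kept in number, while the rises went from 8 to 2, with 0 of the 7 macrophage-made members called. Over all genes the calls went from 1337 higher and 1319 lower to 782 and 841, so calls were lost beyond these members too.

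In the RYGB diet contrast, 6 members rose (*C3*, *C4b*, *Hc*, *C8a*, *Clu* and *Cfd*) and 0 fell, where 1.99% of all tested genes rose and 1.65% fell. *Cfd* passed the filter mainly through HFD mice and through no RYGB Chow mouse, which may favour a rise, so it is not read as support. At an unadjusted p under 0.05, 15 members were higher and 0 lower, as were 1205 and 1103 of the 12289 tested genes. DESeq2 called 9 members higher and 0 lower, and 399 and 352 of all genes. The groups did not overlap for 7 members, against 5.05% of all tested genes. *Cfd* is among the 15, the 9 and these 7. *Cd46*, which passed the filter only through RYGB HFD, is among the 15 and the 9. Neither is read as support. Without RYGB HFD replicate 3 the count went from 6 to 3, while over all genes it went from 245 higher and 203 lower to 118 and 126.

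In the chow surgery contrast, edgeR called 0 members, where 0.0488% of all tested genes rose and 0.00814% fell. At an unadjusted p under 0.05, 6 members were higher and 0 lower in RYGB Chow, as were 700 and 625 of the 12289 tested genes. DESeq2 called 5 members higher, the macrophage-made *C1qa*, *C1qb*, *C1qc*, *Cfp* and *Fcna*, and limma-voom called 0. Over all genes DESeq2 called 66 higher and 26 lower. The 7 macrophage-made members all had positive log2 fold changes, with a median of 0.83, against 0.01 over the 22 hepatocyte-made members. The groups did not overlap for 3 members, against 1.33% of all tested genes, and these were *Cfp*, *Fcna* and, by a gap smaller than the rounding of its values, *C1qa*.

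**Figure D1:**
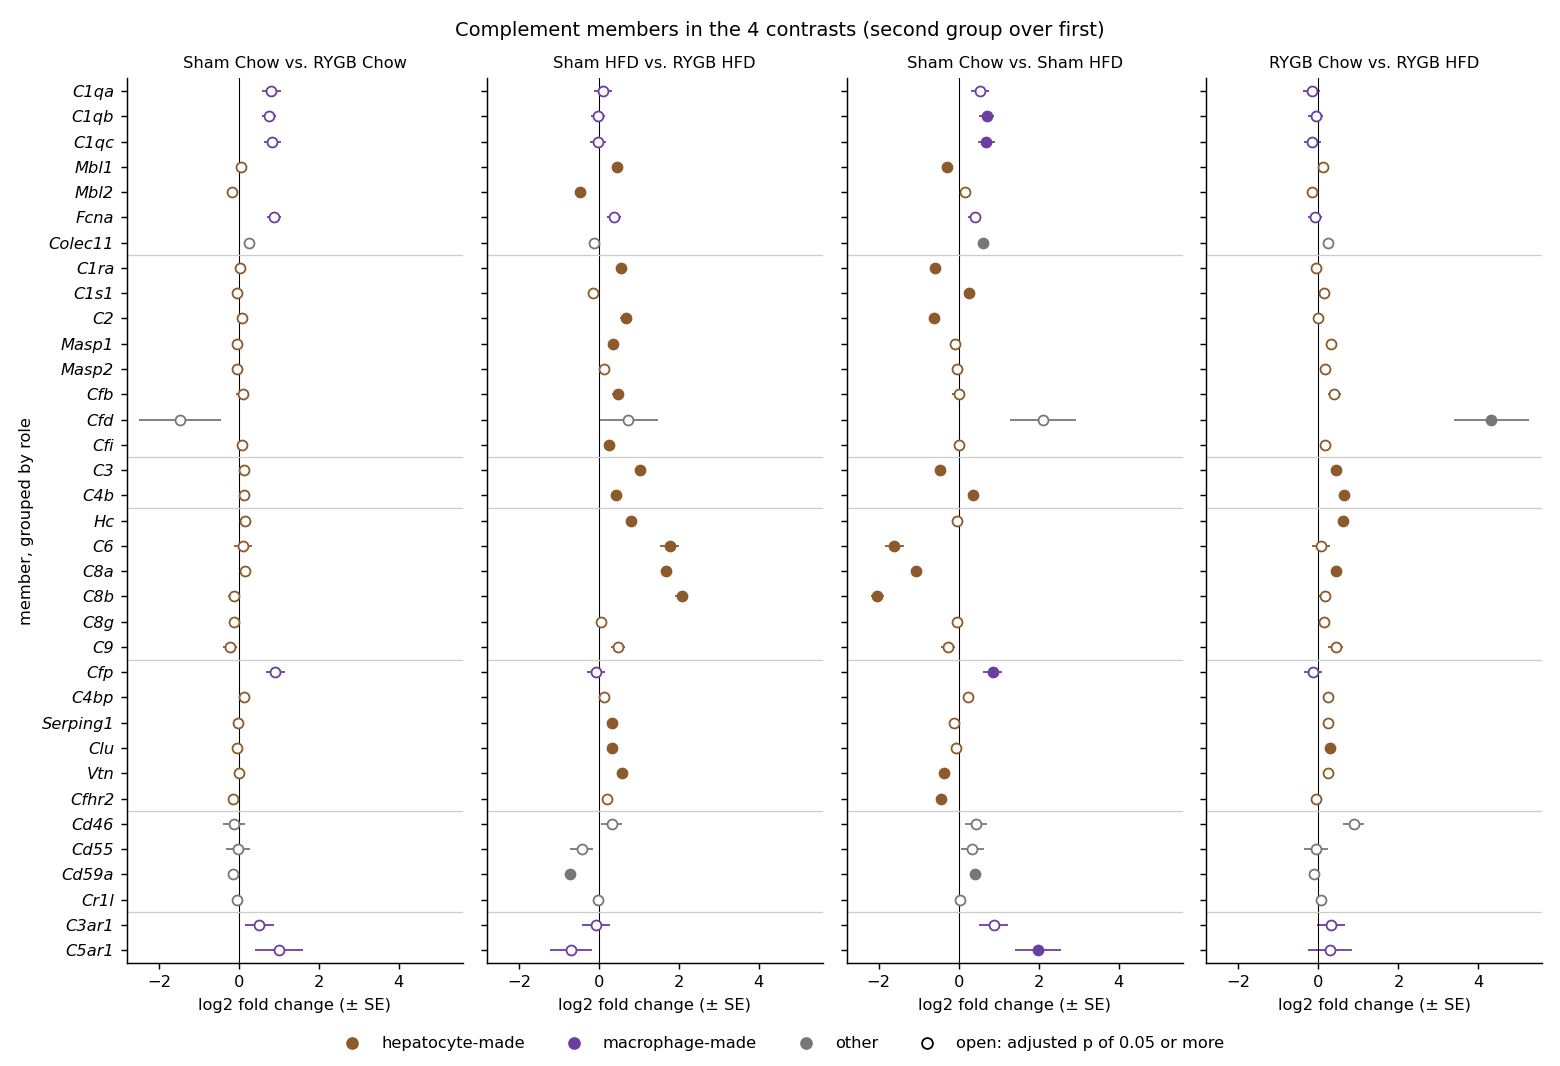
Log2 fold change of each of the 35 tested members in the 4 contrasts, with its standard error; rows are members grouped by role (recognition, proteases, central, terminal, fluid-phase regulators, membrane regulators, receptors), colour gives the class, and filled points passed an adjusted p under 0.05. The 15 filled points to the right in the HFD surgery contrast are all hepatocyte-made, and the widest error bars belong to *Cfd*.

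Terminal components had the largest log2 fold changes among the hepatocyte-made members in the sham diet contrast and in the HFD surgery contrast. These were *C6*, which binds C5b, and *C8a* and *C8b*, the alpha and beta chains of C8. All 3 were low in Sham HFD, and their RYGB HFD mice overlapped the chow mice or lay above them. *C8a* and *C8b* are neighbours on chromosome 4, from 104815679 to 104876398 on the minus strand and from 104766317 to 104804548 on the plus strand, 11130 bases apart. *C6* lies on chromosome 15 from 4727175 to 4814967, on the plus strand (all in GRCm38). The 250 bases before the annotated start of these 3 genes are shown because the genes moved together. They are RefSeq sequences of build GRCm38.p6, read on the strand of the gene at chr15:4726960-4727209, chr4:104876399-104876648 and chr4:104766067-104766316, and capitals mark matches to the motifs searched. The RefSeq start of *C6* lies 35 bases inside the GENCODE M21 transcript.
C6: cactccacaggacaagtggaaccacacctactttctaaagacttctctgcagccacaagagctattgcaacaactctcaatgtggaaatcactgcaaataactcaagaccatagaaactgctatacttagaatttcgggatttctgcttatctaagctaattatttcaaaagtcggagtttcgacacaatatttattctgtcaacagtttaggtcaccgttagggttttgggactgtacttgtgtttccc
C8a: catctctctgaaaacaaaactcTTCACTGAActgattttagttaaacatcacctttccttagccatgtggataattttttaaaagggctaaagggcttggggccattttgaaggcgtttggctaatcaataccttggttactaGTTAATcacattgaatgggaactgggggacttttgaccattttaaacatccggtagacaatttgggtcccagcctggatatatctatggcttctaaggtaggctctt
C8b: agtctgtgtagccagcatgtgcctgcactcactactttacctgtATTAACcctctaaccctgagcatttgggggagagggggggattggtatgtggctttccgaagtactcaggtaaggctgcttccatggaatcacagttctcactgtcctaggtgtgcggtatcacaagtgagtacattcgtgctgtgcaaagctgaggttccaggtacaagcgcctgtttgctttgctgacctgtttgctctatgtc

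The motifs searched on both strands were an HNF1 half-site (GTTAAT), an HNF4 half-site (CAAAGT), a C/EBP motif (TTGCNNAA), a STAT motif (TTCNNNGAA) and the TATA box (TATAAA). Their matches can overlap. The HNF1 half-site was found in *C8a* from -107 to -102 and, on the other strand, in *C8b* from -206 to -201, counted from the start of transcription. The STAT motif was found in *C8a* from -228 to -220, and none of these letters in the window of *C6*. RefSeq windows were matched for 29 of the 37 members, 31 windows in all. The HNF1 half-site was in 29.0% of these (9 windows) and in 6.43% of all 32851 promoter windows of the same length. The other shares were 12.9% and 12.6% for HNF4, 9.68% and 9.56% for C/EBP, 12.9% and 7.02% for STAT, and 12.9% and 12.4% for the TATA box. The 9 were *C1ra*, *C4bp*, *C7*, *C8a*, *C8b*, *Cfhr2*, *Cfp*, *Hc* and *Vtn*. These matches describe letters and are not evidence of binding.

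The CPM of *C8b* was 329, 235, 332, 256 and 349 in the Sham Chow mice and 217, 312, 249, 338 and 265 in the RYGB Chow mice. It was 100.4, 77.0, 61.7, 70.0 and 59.4 in the Sham HFD mice and 277, 312, 264, 377 and 321 in the RYGB HFD mice. Every Sham HFD mouse lay far below every mouse of the other 3 groups, which overlapped each other. *C8b* fell by 2.03 on the log2 scale in the sham diet contrast (± 0.16 SE, adjusted p = 5.33e-08) and rose by 2.07 (± 0.16 SE, adjusted p = 7.02e-08) in the HFD surgery contrast. In the RYGB diet contrast its log2 fold change was 0.17 (± 0.15 SE, adjusted p = 0.598).

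The CPM of *C8a* was 693, 670.1, 794, 610.3 and 702 in the Sham Chow mice and 694, 822, 710, 907 and 723 in the RYGB Chow mice. It was 438, 357, 305, 306 and 249 in the Sham HFD mice and 1000.1, 1045, 1169, 1027 and 1020.3 in the RYGB HFD mice. The Sham HFD mice were again lowest, and here the RYGB HFD mice lay above all others. The log2 fold change was -1.07 (± 0.12 SE, adjusted p = 6.10e-06) in the sham diet contrast, 1.67 (± 0.12 SE, adjusted p = 7.02e-08) in the HFD surgery contrast and 0.45 (± 0.12 SE, adjusted p = 0.0355) in the RYGB diet contrast. The last call was lost in 7 of 20 fits that left out a mouse, with an adjusted p up to 0.0925. That call was also lost with library size only, without the filter and with the replicate number as a block (adjusted p up to 0.0565).

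The CPM of *C6* was 215, 263, 264, 146 and 273 in the Sham Chow mice and 257, 278, 170.2, 305 and 234 in the RYGB Chow mice. It was 137, 76.1, 64.0, 59.4 and 44.3 in the Sham HFD mice and 219, 226, 247, 306 and 302 in the RYGB HFD mice. Sham HFD replicate 1 was the highest of its group and lay just below Sham Chow replicate 4, the lowest of the other groups. The log2 fold change was -1.61 (± 0.24 SE, adjusted p = 9.89e-05) in the sham diet contrast and 1.77 (± 0.24 SE, adjusted p = 4.34e-05) in the HFD surgery contrast.

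*C8g*, the gamma chain of C8, which lies on chromosome 2, stayed between 242 and 387 CPM in all 20 mice. Its log2 fold change was 0.05 (± 0.09 SE, adjusted p = 0.719) in the HFD surgery contrast and -0.05 (± 0.09 SE, adjusted p = 0.694) in the sham diet contrast, and the groups overlapped in both. The 3 chains of C8 join in equal numbers in the protein. The CPM ratio of *C8b* to *C8g*, which is not corrected for length and is compared only between groups, had group medians of 0.901, 0.983, 0.216 and 0.993. The ratio of *C8a* to *C8g* had medians of 2.32, 2.59, 1.03 and 3.33 in the same order. In both ratios the Sham HFD mice, at 0.192 to 0.328 and at 0.805 to 1.43, lay below all other mice. The pairs were chosen with their values known, so no test is given. *C8g* overlaps *Fbxw5* on the opposite strand by 970 bases, and whether the counting used strand is not given in the sources used here.

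*Hc* encodes complement C5, from which the terminal pathway starts. The CPM of *Hc* was 971, 689, 860.4, 667 and 789.8 in the Sham Chow mice and 904, 1059, 775, 899 and 778 in the RYGB Chow mice. It was 821, 822, 702, 786 and 733 in the Sham HFD mice and 1354, 1182, 1576, 1182 and 1444 in the RYGB HFD mice. The RYGB HFD mice lay above all other mice, and the other 3 groups overlapped. *Hc* rose by 0.80 (± 0.11 SE, adjusted p = 6.04e-05) in the HFD surgery contrast and by 0.61 (± 0.11 SE, adjusted p = 0.00372) in the RYGB diet contrast, while its log2 fold change in the sham diet contrast was -0.04 (± 0.11 SE, adjusted p = 0.818). *C9*, whose protein forms the pore, varied within groups, from 314 to 589 CPM in Sham Chow, with a log2 fold change in the HFD surgery contrast of 0.48 (± 0.18 SE, adjusted p = 0.0763). It passed there with DESeq2 (adjusted p = 0.0476), with only the 2 groups in the model (0.00724), without RYGB Chow replicate 3 (0.0434) and without Sham HFD replicate 1 (0.0498).

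**Figure D2:**
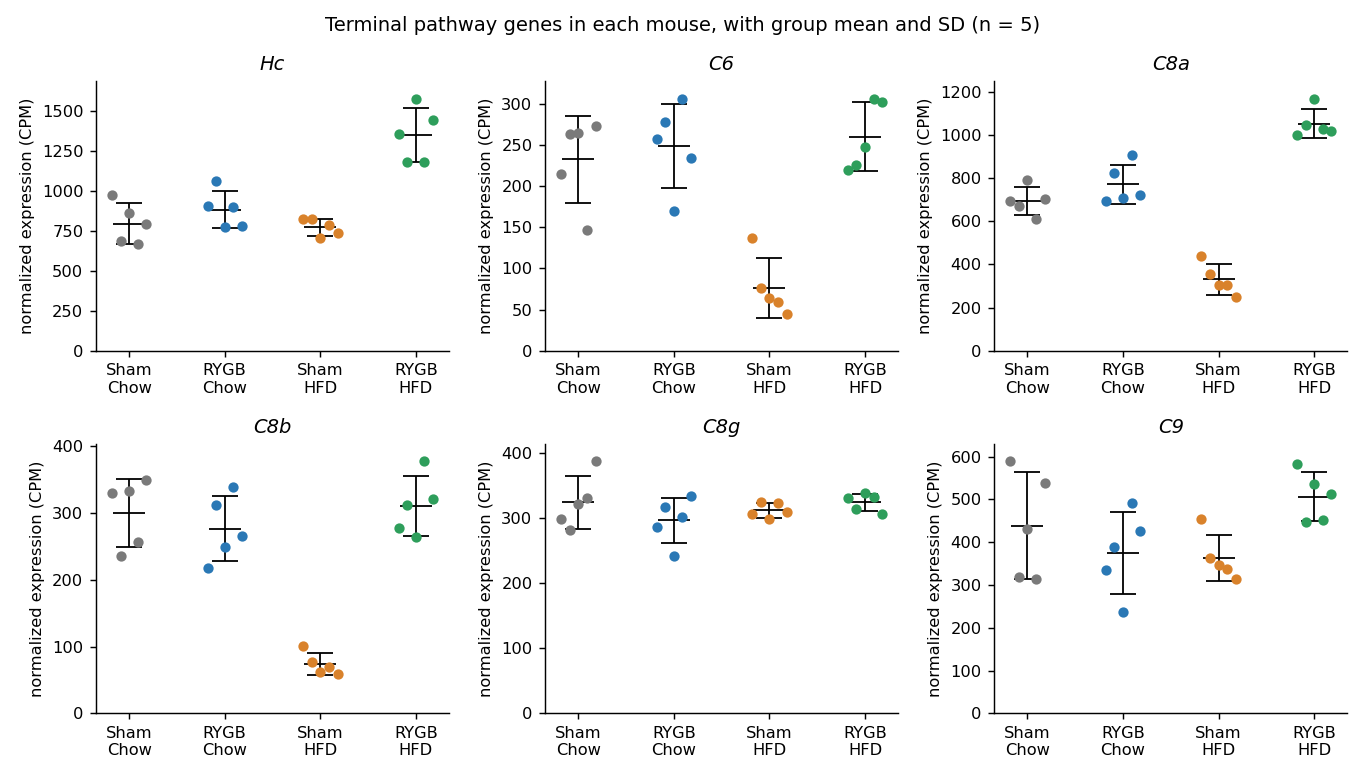
Normalized expression (CPM) of the 6 tested terminal pathway genes in each mouse by group, with points in the order of replicates and bars giving the group mean and SD (n = 5). *C6*, *C8a* and *C8b* are lowest in Sham HFD, *Hc* is highest in RYGB HFD, and *C8g* shows no group apart.

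The central components *C3* and *C4b* differed in how they stood in Sham HFD. *C3*, on which all 3 activation routes converge, was the most abundant member per length, with a mean of 1365 CPM per kb of exon over the 20 mice (859 to 2145), followed by *Vtn* at 1068 (793 to 1284). The ranges of these 2 overlapped. The CPM of *C3* was 7497, 5818, 6086, 6278 and 7213 in the Sham Chow mice and 8121, 8462, 6378, 6459.5 and 6223 in the RYGB Chow mice. It was 4572, 5022, 4661, 5002 and 4419 in the Sham HFD mice and 8808, 8838, 10785, 8776 and 11031 in the RYGB HFD mice. The Sham HFD mice lay below and the RYGB HFD mice above all others. *C3* fell by 0.47 on the log2 scale in the sham diet contrast (± 0.11 SE, adjusted p = 0.00335) and rose by 1.03 (± 0.11 SE, adjusted p = 3.19e-06) in the HFD surgery contrast. In the RYGB diet contrast it rose by 0.44 (± 0.11 SE, adjusted p = 0.0256), a call lost without RYGB Chow replicate 3, 4 or 5 or RYGB HFD replicate 3 or 5 (adjusted p up to 0.0689). That call was also lost without the filter and with only the 2 groups in the model (adjusted p up to 0.114).

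*C4b*, whose product forms part of the classical and lectin C3 convertase, rose in both HFD comparisons. The CPM of *C4b* was 1129, 954, 1227, 1070.5 and 1113 in the Sham Chow mice and 1214, 1243, 1085, 1081 and 1359 in the RYGB Chow mice. It was 1249.8, 1465, 1391, 1463 and 1424 in the Sham HFD mice and 2096, 1813, 2089, 1509 and 1852 in the RYGB HFD mice. The log2 fold change was 0.35 (± 0.09 SE, adjusted p = 0.012) in the sham diet contrast, 0.65 (± 0.09 SE, adjusted p = 0.000523) in the RYGB diet contrast and 0.42 (± 0.09 SE, adjusted p = 0.0038) in the HFD surgery contrast. None of these 3 pairs of groups overlapped. Without Sham Chow replicates 4 and 5 the rise in the sham diet contrast was 0.34 (adjusted p = 0.0574). *C4b* was the only member that rose both in the sham diet contrast and in the HFD surgery contrast. Reads of *C4b* may be shared with its close paralog *C4a*, which lay at medians of 19.1 to 53.7 CPM.

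Of the 8 proteases, 5 rose in the HFD surgery contrast, all hepatocyte-made. *C1ra* encodes C1r, the first protease of the classical pathway. The CPM of *C1ra* was 238, 207, 260.3, 259 and 251 in the Sham Chow mice and 207, 268, 216, 243 and 307 in the RYGB Chow mice. It was 161, 166, 159, 161 and 161 in the Sham HFD mice and 242, 239, 219, 239 and 245 in the RYGB HFD mice. The Sham HFD mice were tightly grouped below all others. The log2 fold change was -0.59 (± 0.09 SE, adjusted p = 0.000127) in the sham diet contrast and 0.55 (± 0.09 SE, adjusted p = 0.000262) in the HFD surgery contrast. *C1s1*, which encodes the partner protease C1s and lies 6901 bases from *C1ra* on the opposite strand of chromosome 6, moved the other way in the sham diet contrast. It stood at 352 to 400.5 CPM in Sham Chow and 435 to 491 in Sham HFD, and rose by 0.25 (± 0.08 SE, adjusted p = 0.0241). That call was lost without Sham Chow replicate 2 or Sham HFD replicate 1 (adjusted p up to 0.0575) and without the filter (adjusted p = 0.0897). Without Sham Chow replicates 4 and 5 the rise of *C1s1* was 0.26 (adjusted p = 0.0728). In the HFD surgery contrast its log2 fold change was -0.14 (± 0.08 SE, adjusted p = 0.205). The CPM ratio of *C1ra* to *C1s1* had group medians of 0.648, 0.692, 0.367 and 0.591, and Sham HFD (0.329 to 0.382) did not overlap the other groups.

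*C2*, whose product binds C4b and is then the protease of the convertase, ran from 19.1 to 23.2 CPM in Sham HFD, against 22.7 to 36.3 in Sham Chow. On RYGB it ran from 28.1 to 41.4 with chow and from 28.3 to 39.9 with HFD. The level fell by 0.61 on the log2 scale in the sham diet contrast (± 0.13 SE, adjusted p = 0.00215) and rose by 0.67 (± 0.13 SE, adjusted p = 0.00109) in the HFD surgery contrast. *Cfb*, factor B of the alternative pathway, rose by 0.48 (± 0.16 SE, adjusted p = 0.0432), and *Cfi*, which inactivates C3b and C4b, by 0.25 (± 0.08 SE, adjusted p = 0.0238). *Masp1*, a lectin pathway protease, rose by 0.35 (± 0.10 SE, adjusted p = 0.0182), while *Masp2*, the other, had a log2 fold change of 0.13 (± 0.08 SE, adjusted p = 0.298). *C2* and *Cfb* lie 85 bases apart on chromosome 17 and both overlap the gene model *Gm20547* on the same strand, which had 0 counts. *Cfb* was at only 4.30 to 9.57 CPM, and the counts of both genes are uncertain because how reads that fit more than 1 gene were treated is not given.

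*Cfd* encodes factor D, the protease that cleaves factor B, and is made mainly by adipocytes. The CPM of *Cfd* was 0.145, 4.04, 0.509, 0.5 and 0.546 in the Sham Chow mice and 0.654, 0.162, 0, 0.782 and 0.453 in the RYGB Chow mice. It was 5.97, 2.68, 8.07, 4.67 and 3.81 in the Sham HFD mice and 24.4, 3.07, 12.5, 1.12 and 0.864 in the RYGB HFD mice. RYGB HFD replicates 1 and 3 were the highest of all mice while replicates 4 and 5 were at 1.12 and 0.864. *Cfd* rose by 4.32 (± 0.94 SE, adjusted p = 0.0139) in the RYGB diet contrast, with no overlap but a gap only from 0.782 to 0.864 CPM. Because it passed the filter mainly through HFD mice, a rise on HFD may have been favoured. The call was lost with limma-voom and with only the 2 groups in the model (adjusted p up to 0.133), and RYGB Chow replicate 3 had 0 counts. In the sham diet contrast the log2 fold change was 2.11 (± 0.83 SE, adjusted p = 0.0728). The adipocyte-defining *Adipoq*, *Plin1*, *Lep* and *Retn* summed to 0 in RYGB HFD replicates 1, 2 and 3, which include the mice with the most *Cfd*. Their sum was 3.77 and 2.88 CPM in Sham HFD replicates 1 and 4 and at most 0.272 in the other mice. The other adipocyte markers, *Cidec* and *Plin4*, which liver cells with lipid droplets also express, rose in the sham diet contrast, *Cidec* by 1.65 on the log2 scale (adjusted p = 0.0314) and *Plin4* by 1.53 (adjusted p = 0.00723).

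**Figure D3:**
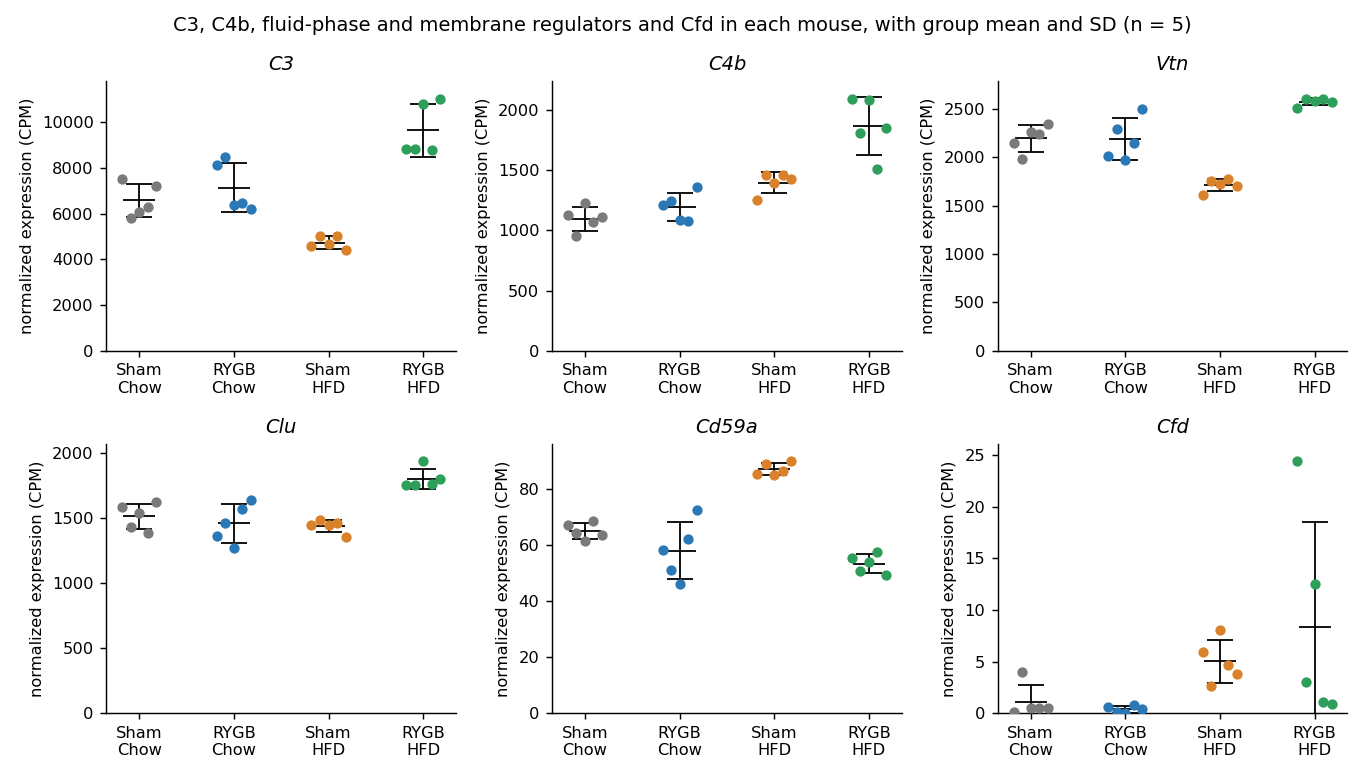
Normalized expression (CPM) of *C3*, *C4b*, *Vtn*, *Clu*, *Cd59a* and *Cfd* in each mouse by group, with the group mean and SD (n = 5); the SD bar of *Cfd* in RYGB HFD runs below 0 and is clipped there. *C3* and *Vtn* are lowest in Sham HFD and highest in RYGB HFD on the mean, *C4b* is higher in Sham HFD than in Sham Chow and highest in RYGB HFD, and *Cd59a* is highest in Sham HFD.

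The recognition molecules *Mbl1* and *Mbl2*, which encode the mannose-binding lectins A and C, moved in opposite directions in the HFD surgery contrast. *Mbl1* ran from 144 to 165 CPM in Sham HFD, against 171 to 219 in Sham Chow and 188 to 246 in RYGB HFD. Its level fell by 0.30 on the log2 scale in the sham diet contrast (± 0.08 SE, adjusted p = 0.00956) and rose by 0.45 (± 0.08 SE, adjusted p = 0.000553) in the HFD surgery contrast. The fall was not called with library size only (adjusted p = 0.174). *Mbl2* stood at 360.3 to 415 CPM in Sham HFD and 241 to 326 in RYGB HFD, where it had fallen by 0.48 on the log2 scale (± 0.12 SE, adjusted p = 0.00743). The CPM ratio of *Mbl1* to *Mbl2* had group medians of 0.528, 0.628, 0.39 and 0.796, and RYGB HFD (0.60 to 1.02) overlapped both chow groups.

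**Figure D4:**
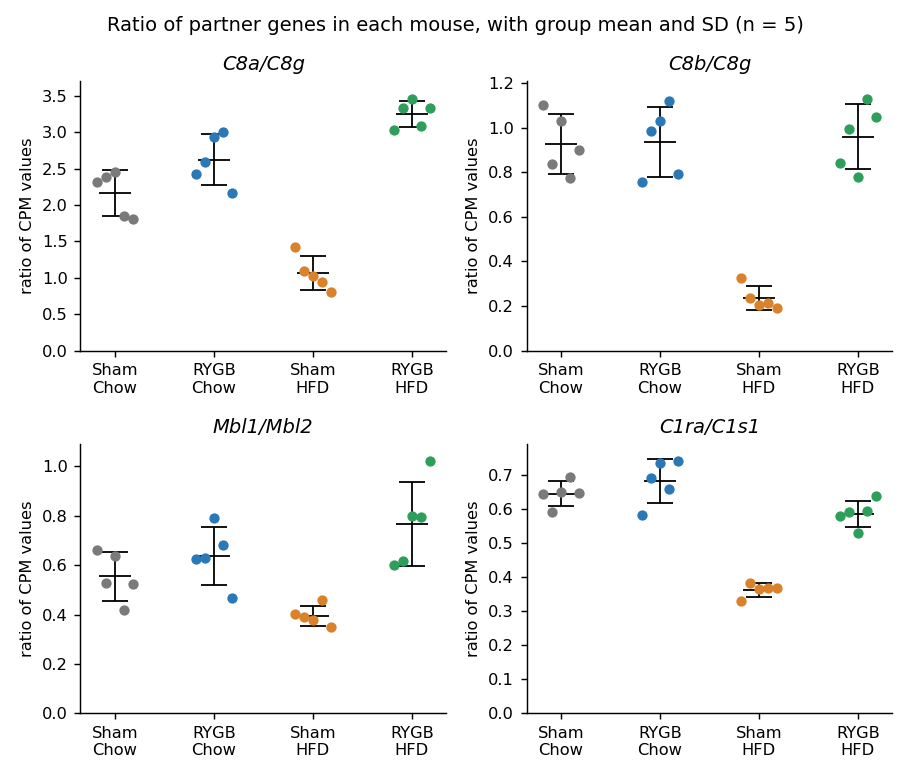
Ratio of CPM values of *C8a* to *C8g*, *C8b* to *C8g*, *Mbl1* to *Mbl2* and *C1ra* to *C1s1* in each mouse by group, with the group mean and SD (n = 5). The Sham HFD mice have the lowest values of both C8 ratios and of *C1ra* to *C1s1*, without overlap with another group.

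The genes *C1qa*, *C1qb* and *C1qc* encode the 3 chains of C1q, which starts the classical pathway, and lie side by side on chromosome 4. The CPM of *C1qa* was 31.2, 31.2, 30.6, 19.9 and 16.0 in the Sham Chow mice and 34.7, 31.2, 59.4, 45.2 and 55.7 in the RYGB Chow mice. It was 25.6, 37.9, 46.0, 38.2 and 38.9 in the Sham HFD mice and 58.6, 36.1, 25.6, 38.0 and 42.6 in the RYGB HFD mice. Sham Chow was the lowest group, with replicates 4 and 5 lowest within it. The CPM of *C1qb* was 37.4, 33.3, 29.3, 20.1 and 19.7 in the Sham Chow mice and 41.0, 35.9, 64.1, 45.8 and 48.6 in the RYGB Chow mice. It was 37.3, 41.5, 54.2, 45.4 and 49.4 in the Sham HFD mice and 56.7, 39.7, 33.0, 51.8 and 43.1 in the RYGB HFD mice. The 2 lowest mice were again Sham Chow replicates 4 and 5. The CPM of *C1qc* was 32.0, 26.9, 26.1, 17.1 and 15.3 in the Sham Chow mice and 35.0, 27.4, 57.6, 40.7 and 48.3 in the RYGB Chow mice. It was 30.8, 35.1, 43.5, 39.7 and 41.4 in the Sham HFD mice and 51.0, 32.7, 26.3, 39.2 and 38.7 in the RYGB HFD mice. Sham Chow again held the lowest mice, and RYGB Chow replicate 3 was the highest for each chain.

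In the sham diet contrast, *C1qb* rose by 0.70 (± 0.18 SE, adjusted p = 0.0104) and *C1qc* by 0.69 (± 0.21 SE, adjusted p = 0.0216), while the log2 fold change of *C1qa* was 0.53 (± 0.23 SE, adjusted p = 0.0964). In the chow surgery contrast the 3 chains had log2 fold changes of 0.81, 0.75 and 0.83 (adjusted p = 0.194, 0.148 and 0.159, standard errors 0.23, 0.18 and 0.21). In DESeq2 the adjusted p was 0.047, 0.0221 and 0.0238. In the HFD surgery contrast the 3 lay between -0.02 and 0.11 and in the RYGB diet contrast between -0.17 and -0.07, all overlapping. *C1qc* lost its call in the sham diet contrast without Sham Chow replicate 4 or 5 (adjusted p up to 0.0621). Without both mice the log2 fold changes of *C1qb* and *C1qc* were 0.45 (adjusted p = 0.105) and 0.43 (adjusted p = 0.181).

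Kupffer cell markers moved beside C1q. In the chow surgery contrast, all 7 had positive log2 fold changes with a median of 0.91 and 0 were called. In the sham diet contrast, 3 of 7 rose (*Clec4f*, *Adgre1* and *Cd5l*), and 6 of 8 tested macrophage and monocyte markers rose, where 10.9% of all tested genes rose. The summed level of the 7 Kupffer markers ran from 93.2 to 238 CPM with Sham Chow and from 195 to 466 with RYGB Chow. On HFD it ran from 209 to 283 after sham and from 187 to 345 after RYGB. None of the 7 was at 0 in any mouse. Their part in the differences of the macrophage-made members was not tested.

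Of the other macrophage-made members, *Cfp*, which encodes properdin, the stabilizer of the alternative pathway convertase, stood at 9.76 to 17.8 CPM in Sham Chow and 17.5 to 30.8 in Sham HFD and rose by 0.85 (± 0.23 SE, adjusted p = 0.0106). *Fcna*, which encodes ficolin A, a lectin pathway recognition molecule, stood at 17.1 to 27.9 CPM in Sham Chow and 33.3 to 52.2 in RYGB Chow, without overlap, with a log2 fold change of 0.87 (± 0.17 SE, adjusted p = 0.0713). It passed there with DESeq2 (adjusted p = 0.00108), without the filter (0.0209), without RYGB Chow replicate 5 (0.0421) and without RYGB HFD replicate 3 (0.0387). Without Sham Chow replicates 4 and 5 the log2 fold change of *Cfp* was 0.68 (adjusted p = 0.0898). The C5a receptor gene *C5ar1* held 0 to 1.21 CPM in the Sham Chow mice and 1.34 to 2.19 in the Sham HFD mice, through which alone it passed the filter. Its test is therefore not read. The C3a receptor gene *C3ar1* had a log2 fold change of 0.88 (± 0.36 SE, adjusted p = 0.0822) in the sham diet contrast. Neutrophil markers, whose cells also carry these receptors, were near 0, with a summed level of at most 4.16 CPM.

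**Figure D5:**
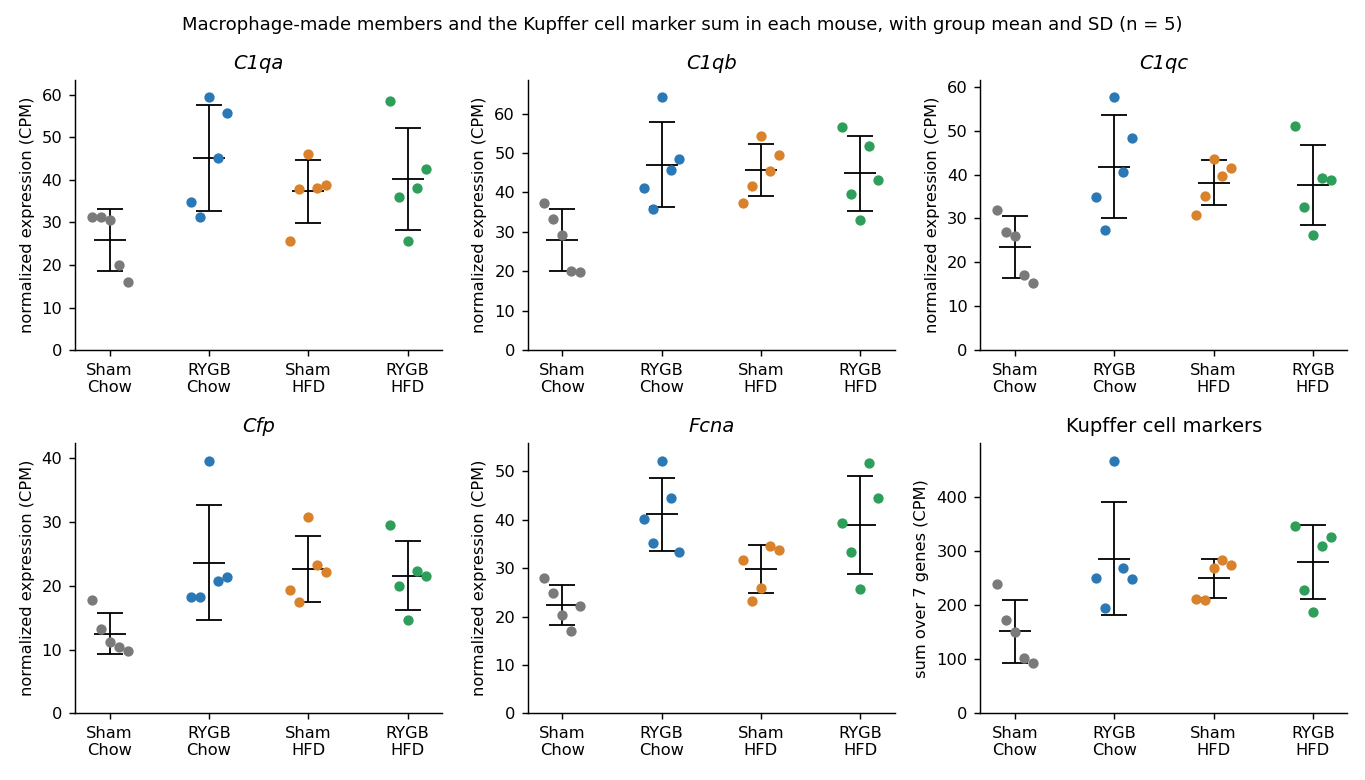
Normalized expression (CPM) of 5 macrophage-made members and the summed CPM of 7 Kupffer cell markers in each mouse by group, with the group mean and SD (n = 5). Sham Chow replicates 4 and 5 are the lowest mice for all 3 C1q chains and for the markers, and RYGB Chow replicate 3 is the highest for the markers, for *Cfp* and for the C1q chains.

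Of the 6 fluid-phase regulators, 3 rose in the HFD surgery contrast. *Vtn* encodes vitronectin and *Clu* clusterin, which both keep terminal complexes out of membranes. The CPM of *Vtn* was 2145, 1981, 2261, 2241 and 2349 in the Sham Chow mice and 2014, 2297, 1969.9, 2152 and 2499 in the RYGB Chow mice. It was 1610.3, 1754, 1719.6, 1772 and 1706 in the Sham HFD mice and 2514, 2606, 2587, 2601 and 2567 in the RYGB HFD mice. The RYGB HFD mice were tightly grouped above all others and the Sham HFD mice below them. *Vtn* fell by 0.36 on the log2 scale in the sham diet contrast (± 0.07 SE, adjusted p = 0.0013) and rose by 0.59 (± 0.07 SE, adjusted p = 1.43e-05) in the HFD surgery contrast. The CPM of *Clu* was 1586, 1435, 1538, 1389 and 1620.3 in the Sham Chow mice and 1362, 1459, 1268, 1571 and 1638 in the RYGB Chow mice. It was 1444, 1482, 1448, 1459.6 and 1357 in the Sham HFD mice and 1753, 1757, 1936, 1759 and 1803 in the RYGB HFD mice. Only RYGB HFD stood apart. *Clu* rose by 0.33 (± 0.07 SE, adjusted p = 0.00392) in the HFD surgery contrast and by 0.30 (± 0.07 SE, adjusted p = 0.0248) in the RYGB diet contrast, the latter lost without RYGB Chow replicate 1 or RYGB HFD replicate 3 (adjusted p up to 0.0662). The latter call was also lost without the filter and with only the 2 groups in the model (adjusted p up to 0.123).

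*Serping1*, the gene of the C1 inhibitor, rose by 0.34 (± 0.09 SE, adjusted p = 0.0116) in the HFD surgery contrast. The Sham HFD mice held 659 to 718 CPM and the RYGB HFD mice 784 to 972. *Cfhr2* fell by 0.44 on the log2 scale in the sham diet contrast (± 0.10 SE, adjusted p = 0.0038) and had a log2 fold change of 0.21 (± 0.10 SE, adjusted p = 0.15) in the HFD surgery contrast. It was the only one of the 9 that fell in Sham HFD without a call in the latter contrast. The C4b-binding protein gene *C4bp* had a log2 fold change of 0.23 (± 0.10 SE, adjusted p = 0.103) in the sham diet contrast, and passed there with library size only (0.36, adjusted p = 0.00377) and with only the 2 groups in the model (adjusted p = 0.0284).

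Of the 4 membrane regulators, *Cd59a* rose in 1 contrast and fell in another, and the other 3 did neither. *Cd59a*, whose product blocks the membrane attack complex on host cells, was at 85.0 CPM or higher in every Sham HFD mouse, above all other mice. It ran from 61.7 to 68.8 in Sham Chow, from 46.1 to 72.8 with RYGB on chow and from 49.6 to 57.5 with RYGB on HFD. *Cd59a* rose by 0.42 (± 0.09 SE, adjusted p = 0.00216) in the sham diet contrast and fell by 0.71 on the log2 scale in the HFD surgery contrast (± 0.09 SE, adjusted p = 2.33e-05). *Cd55* speeds decay of the convertases, *Cd46* encodes a cofactor for cleavage of C3b and *Cr1l* the rodent regulator Crry. *Cd46* lay between 0.569 and 2.39 CPM, and its tests are not read because of how it passed the filter. *Cr1l* stayed between 36.3 and 47.5 CPM.

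*Colec11*, which encodes the lectin CL-K1, stood at 18.4 to 30.2 CPM in Sham Chow and 30.6 to 38.3 in Sham HFD and rose by 0.62 (± 0.11 SE, adjusted p = 0.000597). In that contrast stellate cell markers rose too, with 7 of 7 higher in Sham HFD than in Sham Chow, where 10.9% of all tested genes rose. Their summed levels were 132 to 221 CPM in Sham Chow and 272 to 335 in Sham HFD, and none was at 0 in any mouse. Their median log2 fold change was 0.85, against 0.88 for Kupffer cell, 1.05 for macrophage and monocyte and 0.53 for endothelial markers. In the HFD surgery contrast 3 of the 7 fell, with a median of -0.43, where 7.9% of all tested genes fell. *Colec11* had a log2 fold change of -0.12 there (adjusted p = 0.474). The part of the stellate cell markers in the rise of *Colec11* was not tested.

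The surgery by diet interaction asked whether the diet difference of RYGB mice differed from that of sham mice. It was called for 10 members, 9 positive and 1 negative, where 2.48% of all tested genes were positive and 2.58% negative. All 9 positive members were hepatocyte-made (*C8b*, *C6*, *C8a*, *C3*, *Hc*, *Vtn*, *C1ra*, *Mbl1* and *Clu*), and the negative member was *Cd59a*. The median was 0.40 over the hepatocyte-made and -0.77 over the macrophage-made members. Of the macrophage-made, 0 were called by edgeR and 5 lay below 0 at an unadjusted p under 0.05, as did 1259 of the 12289 tested genes. *C5ar1*, which passed the filter only through Sham HFD, is among these 5 and in that median, and is not read as support. DESeq2 called 3 of the 7 macrophage-made members negative, and 493 of all genes. *Clu* and *Mbl1* lost the call in 14 and 9 of 20 fits that left out a mouse, with adjusted p up to 0.0757 and 0.0716. Both also lost it with library size only, without the filter and with the replicate number as a block (adjusted p up to 0.138 and 0.239).

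Beyond the members, 22 further complement genes were listed and 17 tested. In the HFD surgery contrast, 5 rose and 2 fell, where 8.54% of all tested genes rose and 7.9% fell. *Susd4*, an inhibitor of complement, rose by 1.87 on the log2 scale (adjusted p = 0.000262), from a median of 10.4 to 47.4 CPM. *C1rl*, *Cpn1* and *Cpn2* also rose, by 0.18 (adjusted p = 0.0326), 0.21 (adjusted p = 0.0378) and 0.42 (adjusted p = 0.00555). *Itgax* and *Cd59b* fell. In the sham diet contrast 3 rose (*Itgax*, *Itgb2* and *Cd59b*) and 3 fell, *Susd4* and *C1qbp* among them. Of all tested genes, 10.9% rose and 10.7% fell there. *Itgax* ran from 1.38 to 3.56 CPM in Sham HFD and reached at most 1.3, 1.64 and 1.74 in Sham Chow, RYGB Chow and RYGB HFD. It thus passed the filter only through Sham HFD, and its tests in both contrasts are not read. In the RYGB diet contrast 2 rose, *Cpn2* among them, where 1.99% of all tested genes rose and 1.65% fell. In the chow surgery contrast edgeR called 0 of the 17.

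Some liver genes outside complement moved in the same direction as the hepatocyte-made members, and others did not. In the HFD surgery contrast, 4 of 6 tested hepatocyte markers rose (*Alb*, *Apoa1*, *Serpina1a* and *Cps1*) and *Ttr* fell, and in the sham diet contrast 3 of 6 fell. Of 14 acute-phase genes, 6 rose and 1 fell in the HFD surgery contrast, 5 rose and 4 fell in the sham diet contrast, and 5 rose and 0 fell in the RYGB diet contrast. Over all tested genes, 8.54% rose and 7.9% fell, 10.9% and 10.7%, and 1.99% and 1.65%, in the same order. The median log2 fold change of the acute-phase genes in the sham diet contrast was 0.19, against -0.11 for the hepatocyte-made members. The fibrinogen gene *Fgb* rose by 0.84 in the HFD surgery contrast (adjusted p = 8.67e-06), while the serum amyloid gene *Saa2* fell there (log2 fold change -1.37, adjusted p = 0.0318). Their part in the complement differences was not tested.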

How the data were processed

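Liver mRNA of 20 mice was measured in poly-T-selected, strand-specific paired-end libraries. The authors deposited raw read counts per Ensembl gene, not normalized, which featureCounts 1.5.0-p3 made from HISAT2 2.1.0 alignments to mm10 (GRCm38) after Trimmomatic 0.36 trimming. The annotation release, the strand setting and the treatment of reads that fit several genes are not given in the sources used here. Gene symbols and positions came from GENCODE M21, which named 54495 of the 54532 genes, and promoter windows from RefSeq (GRCm38.p6).

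The 12289 genes that reached 2 CPM in 3 or more mice were tested with edgeR 4.0.16 (R 4.3.3). TMM factors, which ran from 0.916 to 1.13, and quasi-likelihood tests of 1 model of the 4 groups were used, two-sided, with Benjamini-Hochberg adjustment over all of them. The threshold was an adjusted p under 0.05. For single members an exact permutation test of log2(CPM + 0.5) was run as well, over the 252 splits of 5 mice against 5. Its smallest p is 0.00794. Counts are PCR reads without molecular identifiers, and their number (14604854 to 22537498 per mouse) limits the precision of members with few counts. Replicates are separate mice.

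The members and lists were chosen with earlier results of these data known. Values in every mouse are given for at most the 4 called members with the smallest p in each contrast and for *C1qa*, *C1qb*, *C1qc*, *C3* and *Cfd*. Alternatives were no filter or one at 5 CPM, scaling by RLE factors or by library size only, DESeq2 1.42.0, voom with limma 3.58.1, only the 2 groups of a contrast, the replicate number as a block, pseudocounts of 0.1 and 2 and each mouse left out. Leaving out Sham Chow replicates 4 and 5 together was added after seeing the data. The procedure was tested on simulated data. Figures were drawn with matplotlib 3.10.9. Values of 1 further complement gene are not reported here.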

Additional observations from a re-analysis of the deposited data

Results flagged for a closer look

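A single mouse stood apart from the other 4 of its group, by Dixon's criterion (0.71 for 5 mice), in 10 of 140 pairs of a member and a group, where chance flags about 1 in 20. RYGB HFD replicate 3 was apart for *C1ra* at 219 CPM (others 239 to 245), for *Masp1* at 225 (177 to 189), for *C8a* at 1169 (1000.1 to 1045) and for *Clu* at 1936 (1753 to 1803). RYGB Chow replicate 3 was apart for *Cfp* at 39.6 CPM (18.2 to 21.4). RYGB Chow replicate 5 was apart for *Serping1* at 945 CPM (639 to 698) and for *Cd55* at 4.42 (14.0 to 17.3). Sham HFD replicate 1 was apart for *C1s1* at 491 CPM (435 to 439), Sham HFD replicate 3 for *C3ar1* at 5.96 (3.42 to 3.68) and Sham Chow replicate 2 for *Cfd* at 4.04 (0.145 to 0.546).

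The diet difference of RYGB mice differed from that of sham mice in the interaction test of edgeR for 10 members. The difference on the log2 scale was 2.19 for *C8b*, 1.67 for *C6*, 1.52 for *C8a*, 0.91 for *C3*, 0.65 for *Hc*, 0.59 for *Vtn*, 0.52 for *C1ra*, 0.41 for *Mbl1*, 0.38 for *Clu* and -0.54 for *Cd59a*.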

How the results depend on the processing

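Of 50 calls of a member in a contrast or in the interaction, 39 passed in every other setting that tested the gene and 40 in every fit that left out a mouse and tested the gene, and none of these 50 changed its direction. *C5ar1*, one of these, failed the filter and was not tested without Sham HFD replicate 1, 4 or 5. The members called in the chow surgery contrast numbered 0 in edgeR, 5 with DESeq2 and 1 without the filter. Those called in the RYGB diet contrast numbered 6, and 3 without the filter or with only the 2 groups in the model. In the sham diet contrast they numbered 17, and 11 without Sham Chow replicates 4 and 5, which was chosen after seeing the data. That fit called 782 higher and 841 lower over all genes, against 1337 and 1319. With a mouse left out, the numbers ran from 0 to 1 in the chow surgery contrast, from 14 to 17 in the HFD surgery contrast, from 15 to 18 in the sham diet contrast, from 3 to 7 in the RYGB diet contrast and from 8 to 13 in the interaction. Over all genes, DESeq2 called 66 higher and 26 lower in the chow surgery contrast, where edgeR called 6 and 1, and 10 and 3 without the filter. In the RYGB diet contrast edgeR called 245 and 203, DESeq2 399 and 352, edgeR with only the 2 groups 94 and 90, and edgeR without the filter 157 and 157. The cause of these shifts was not tested.

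With library size only, the median of all genes moved to 0.122 in the sham diet contrast, to -0.083 in the HFD surgery contrast and to -0.125 in the interaction. Among all genes the calls were then 2279 higher and 554 lower, 542 and 1497, and 151 and 597, against 1337 and 1319, 1050 and 971, and 305 and 317 with TMM factors. The members called in these were 9 higher and 8 lower, 12 and 3, and 7 and 1. *C1s1* passed as lower in the HFD surgery contrast in that setting alone (log2 fold change -0.24). Both other pseudocounts left all 140 permutation tests on the same side of 0.05.

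The groups share replicate numbers, but same-numbered mice did not deviate together, with correlations from -0.257 to 0.16 over 30 pairs of groups and numbers, 5 of them over 0.1. In 4 of the 30 pairs the mouse correlated better with its own number than with any other number of the second group. With the replicate block, 0 and 16 members were called in the chow and HFD surgery contrasts, 17 and 5 in the sham and RYGB diet contrasts and 8 in the interaction. Over all genes that fit called 7 higher and 1 lower, 999 and 906, 1281 and 1254, 204 and 164, and 247 and 245, in the same order. *C5ar1*, *Cd46*, *Cfd* and *C3ar1* rest on few counts, and a difference in them may not be detectable at this depth.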
